A study of Mus musculus with 8 samples.

Results

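The comparison described here set epithelial cells from the cecum of germ-free mice (GF, animals kept without any microbes) against cells from the cecum of control mice (Ctrl), as the deposited cell table names them. A barcode counted as a cell with at least 500 transcripts, and the cells were taken by the sample name. This gave 2966 of the 15916 cells kept in the whole series, 1330 in samples Ctrl 1 to 4 and 1636 in samples GF 1 to 4. Single-cell RNA was barcoded by split-pooling with a Parse Evercode WT kit, which labels fixed cells in plates over several rounds, and was read in 8 sublibraries that each held all groups. Cells of both groups were sorted as EPCAM+ CD45- epithelium and loaded with CD44+ and CD44- cells in equal parts, after pooling by condition. The balance of crypt and surface cells was thereby partly set by the sort. The labels give no strain, age, sex or time of day of collection, and none says that the numbered samples are separate animals. The p-values therefore rest on how far these deposited samples vary, and that variation may be technical. The 8 antibiotic-treated cecal samples of the series (Abx_4D and Abx_14D, 4 each) entered the fits to estimate that spread. They also had a part in the filter on low counts that sets which genes were tested. Over all cells 13376 genes were tested with them and 12650 without.

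The Ctrl samples held 191 to 453 cells and 2573787 to 7489436 transcripts each, and the GF samples 267 to 619 cells and 6702465 to 14157157 transcripts. The median cell had 10684 to 14820 transcripts in the Ctrl samples and 11728 to 22139 in the GF samples. Mitochondrial transcripts made up 0.663% of the median cell in GF 4 and 0.229% to 0.362% in the other 7 samples. Of the 2966 cells, 117 shared their combination of wells with a cell of another sublibrary. Epithelial markers (Epcam, keratins, Cdh1 and others) summed to between 3452 and 5840 CPM (counts scaled to the size of the library) in all 8 samples. Immune markers summed to 9.4 to 40.8 CPM in Ctrl and 4.8 to 14.2 CPM in GF. Doublets were not removed.

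The cecum holds the densest bacterial community of the mouse gut. Stem cells at the crypt base divide, and their daughters leave the cycle and become absorptive cells, which take up water, salts and bacterial fatty acids, or goblet cells, which secrete mucus. Bacteria on the far side of that mucus are known to keep epithelial defence switched on in part through signals from neighbouring immune cells, among them interferons, which induce a large set of antiviral and antigen presentation genes, and interleukin 22, which acts through STAT3.

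Cells were sorted into classes by the summed share of 10 marker transcripts per class, which is a cut on a range and not a cell type of its own. Mature absorptive cells were marked by Krt20, Muc3, Slc26a3 and others, crypt-base cells outside the cycle by Lgr5, Smoc2 and others, S-phase cells by Mcm genes, dividing cells by Mki67, Top2a and others, and goblet cells by Muc2, Clca1 and others. The absorptive class held 251 Ctrl and 353 GF cells, crypt-base 291 and 405, S-phase 205 and 141, dividing 200 and 229, and goblet 82 and 148. Within 25% of their cut, on either side, lay 235 cells for S-phase, 274 for crypt-base, 199 for dividing, 166 for absorptive and 11 for goblet cells. Another 262 Ctrl and 335 GF cells passed no gate. Ctrl 1 gave only 10 absorptive cells, so its absorptive values are the least precise.

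No class share passed the exact permutation test over samples, which after adjustment could not pass a share that changed alone. The S-phase share was 17.1% ± 6.70 (SD, n = 4) in Ctrl and 8.83% ± 2.87 in GF (two-sided exact p = 0.0571, and 0.257 after adjustment over the 9 shares). Absorptive cells made up 16.1% ± 11.1 and 21.0% ± 9.61 (exact p = 0.543), and goblet cells 6.59% ± 2.99 and 9.45% ± 2.25 (exact p = 0.200). Cells past the immune gate made up 1.25% ± 0.820 and 0.318% ± 0.318 (exact p = 0.0571, adjusted 0.257). With 4 samples against 4 the smallest p that can be reached is 0.0286. A share that reached this p alone would still not pass after adjustment over the 9 shares. The test therefore cannot decide whether a single share, such as that of S-phase or immune-gated cells, differed between the groups.

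**Figure D1:**
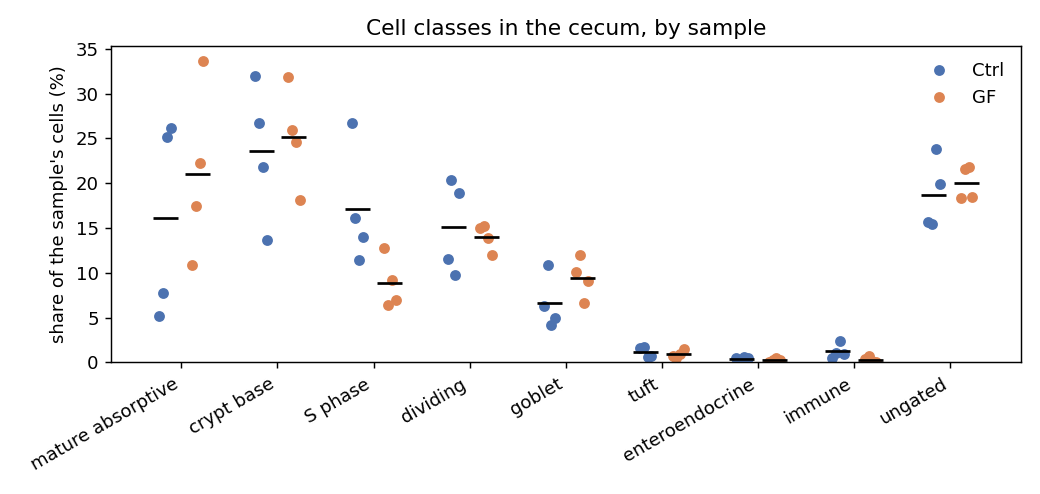
Share of each sample's cells (vertical axis, percent) in each marker-gated class, with Ctrl samples in blue, GF samples in orange and a bar at the mean of 4 samples. The groups overlap in the absorptive, crypt-base, S-phase, dividing and goblet classes, and the S-phase means are 17.1% and 8.83%.

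For each sample and class, raw counts were added up and tested with edgeR's quasi-likelihood test at an adjusted p under 0.05. Over all cells together, 214 of 13376 genes were higher in GF (1.6%) and 477 lower (3.57%), 691 in all, and 417 in all without GF 3. The counts were 206 and 442 without the cells past the immune gate, an alternative added after the data were seen. Mature absorptive cells had 741 genes higher (8.5% of 8719) and 543 lower (6.23%), 1284 in all, and 821 without Ctrl 4. Under another scaling (TMM) these became 517 and 730, so that 57.7% of calls were higher under library-size scaling and 41.5% under TMM, and TMM lowered the median log2 change of all genes by 0.12. Crypt-base cells had 149 higher (1.47%) and 226 lower (2.24%), S-phase cells 82 (0.869%) and 137 (1.45%), dividing cells 98 (0.929%) and 152 (1.44%), and goblet cells 119 (1.32%) and 147 (1.63%). Without GF 3 the crypt-base total went from 375 to 231, and without Ctrl 1, GF 2 or GF 3 the S-phase total went from 219 to 143. The goblet total of 266 was the least steady, at 138 without Ctrl 3, 119 without Ctrl 4, 108 without GF 2, 122 without GF 4 and 653 without GF 1. The classes come from the same 8 samples, so calls in several classes are not independent of each other. In these sums, fewer cells of a kind and less RNA per cell cannot be told apart.

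In mature absorptive cells of GF samples, genes of the interferon response were lower almost throughout. Of 45 tested members of a list of 46 interferon-induced genes, 43 were called lower and 0 higher, with a median log2 change of -3.43, against 0.16 for all genes tested in that class. The count lay between 35 (fit on the 8 GF and Ctrl samples alone) and 46 (no filter on low counts) under the alternatives. Ifit1, an RNA-binding antiviral protein, stood at 214, 32.7, 67.8 and 122 CPM in Ctrl 1 to 4 and at 1.67, 3.97, 1.42 and 4.63 CPM in GF 1 to 4. No GF sample came near the lowest Ctrl sample, and Ifit1 fell by 5.07 ± 0.57 (SE) on the log2 scale (edgeR adjusted p = 6.2e-07). Zbp1, a sensor of left-handed nucleic acid that can trigger cell death, stood at 162, 49.0, 67.2 and 105 CPM in Ctrl and at 0, 0.992, 0.712 and 1.68 CPM in GF. It fell by 6.37 ± 0.61 (adjusted p = 5.8e-08), again with no overlap. Oasl2, of the oligoadenylate synthetase family, fell by 5.15 ± 0.45 from 251 ± 133 to 6.58 ± 2.22 CPM. The ubiquitin-like protein Isg15 fell by 5.46 ± 0.71 from 53.2 ± 37.6 to 1.49 ± 1.29 CPM. Ifit2 had 3 counts in GF and was 172-fold lower (95% counting interval 58.2 to 837).

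Transcription factors that carry the interferon signal were lower by smaller amounts in the same cells. Stat2 fell by 2.06 ± 0.25 on the log2 scale, from 137 ± 37.5 to 32.4 ± 6.89 CPM (edgeR adjusted p = 2.4e-06), and its partner Irf9 by 1.48 ± 0.30. Irf7, which amplifies type I interferon production, fell by 2.00 ± 0.28 from 136 ± 52.8 to 35.6 ± 10.8 CPM. Levels of the receptor chains did not pass the test over all cells. Ifngr1 changed by -0.05 ± 0.18 (adjusted p = 0.91), Ifnar1 by 0.14 ± 0.15 (0.71) and Ifnlr1 by -0.42 ± 0.23 (0.35).

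The gene group can be seen against its promoter sequence. The interferon-stimulated response element is read here as its core letters GAAANNGAA, which IRF factors bind, on either strand. In the 250 bases before the start site of RefSeq genes (GRCm38.p6, an earlier build than the one behind the counts), 8.18% of 27025 genes with a sequence held it, and 19 of the 33 interferon-induced genes that could be matched did (57.6%). These are the sequences of 3 strongly lowered genes, 5′ to 3′ on the gene's strand, with the matches in capitals.
Ifit1 promoter: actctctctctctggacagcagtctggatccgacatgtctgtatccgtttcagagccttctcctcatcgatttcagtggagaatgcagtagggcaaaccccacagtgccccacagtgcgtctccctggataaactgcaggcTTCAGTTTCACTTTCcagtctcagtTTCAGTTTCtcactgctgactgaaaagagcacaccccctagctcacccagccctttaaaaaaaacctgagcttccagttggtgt
Isg15 promoter: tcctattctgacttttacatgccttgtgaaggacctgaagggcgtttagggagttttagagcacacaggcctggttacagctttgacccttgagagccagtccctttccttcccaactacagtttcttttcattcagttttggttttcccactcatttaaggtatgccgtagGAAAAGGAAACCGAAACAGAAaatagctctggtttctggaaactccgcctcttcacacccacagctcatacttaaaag
Rsad2 promoter: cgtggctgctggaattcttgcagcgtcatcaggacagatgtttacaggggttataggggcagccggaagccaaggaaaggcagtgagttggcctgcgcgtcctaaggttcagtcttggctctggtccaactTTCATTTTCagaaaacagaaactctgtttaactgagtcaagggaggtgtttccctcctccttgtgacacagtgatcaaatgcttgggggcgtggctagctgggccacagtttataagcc
The windows lie at chr19:34640639-34640888 (plus strand) for Ifit1, chr4:156200819-156201068 (minus) for Isg15 and chr12:26456453-26456702 (minus) for Rsad2. They end at the base before the annotated start. Matches overlap where the element repeats, with 3 in Ifit1, 3 in Isg15 and 1 in Rsad2. A match describes the letters and does not show binding. Rsad2, the antiviral enzyme viperin, was at 271 CPM in Ctrl 1, at 19.6 to 54.3 CPM in the other Ctrl samples, and at 0 to 3.56 CPM in GF. It fell by 4.82 ± 0.72 on the log2 scale (edgeR adjusted p = 3.2e-05).

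In the other classes fewer members of the interferon-induced list could be tested. Of these, 10 of 22 were lower in crypt-base cells, 8 of 18 in S-phase, 8 of 26 in dividing and 10 of 29 in goblet cells, with 0 higher in each. Under a stricter gate the counts were 1 in S-phase, 2 in dividing and 1 in goblet cells, where fewer cells enter. In crypt-base cells the count was 6 in the fit on the 8 GF and Ctrl samples. Iigp1, an interferon gamma-induced GTPase that attacks vacuoles of intracellular parasites, stood at 51.2, 42.3, 49.1 and 75.8 CPM in the crypt-base cells of Ctrl 1 to 4 and at 0.912, 0.665, 0.321 and 0 CPM in GF. It fell by 6.46 ± 0.71 (edgeR adjusted p = 3e-06), with the groups far apart. Its relative Igtp fell by 2.97 ± 0.61 there. Ifit1 had 3 counts in Ctrl and 5 in GF crypt-base cells, too few to be tested. Iigp1 had 2 counts in S-phase cells of GF, 138-fold lower (95% counting interval 37.8 to 1143), and fell by 5.29 ± 0.84 in dividing cells. In goblet cells Iigp1 had 0 counts in GF against 200 in Ctrl, at least 174-fold lower with a floor of 3 counts over the group.

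**Figure D2:**
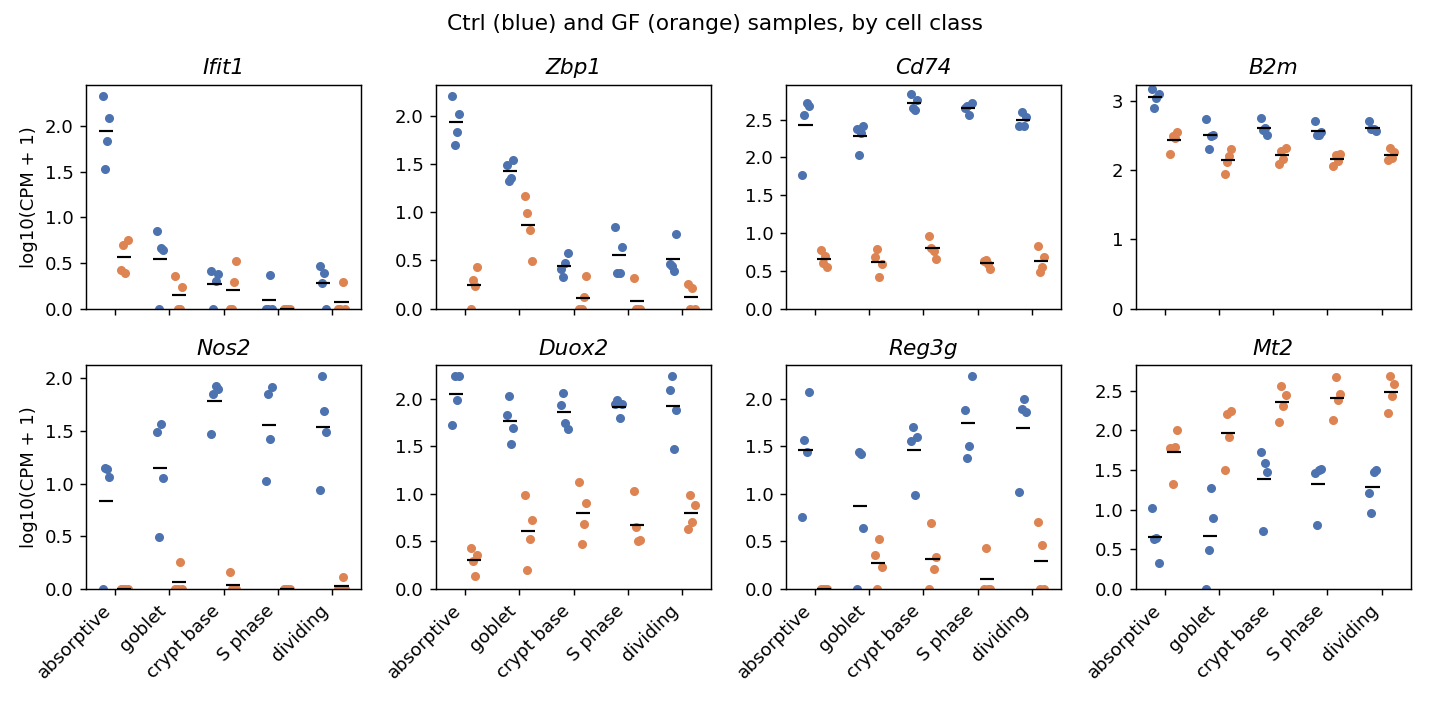
Levels of 8 genes as log10(CPM + 1) on the vertical axis, in 5 cell classes on the horizontal axis, with 1 point per sample (Ctrl blue, GF orange) and a bar at the mean of the logged values. Ifit1 and Zbp1 are highest in Ctrl absorptive cells, while Cd74 and Duox2 separate the groups in all 5 classes and Mt2 is higher in GF in all 5.

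MHC class II genes, which load peptides for CD4+ T cells and are switched on in epithelium mainly by interferon gamma through the co-activator CIITA, were close to absent in GF cells of every class tested. Over all cells, 7 of 7 tested members were lower, with a median log2 change of -6.12 against -0.02 for all genes. By class, 5 of 6 were lower in absorptive, 5 of 6 in crypt-base, 5 of 5 in S-phase, 6 of 7 in dividing and 3 of 3 in goblet cells. The absorptive count was 2 and the dividing count 4 in the fit on the 8 GF and Ctrl samples, and the goblet count was 0 under a stricter gate. Cd74, the invariant chain, stood at 688, 448, 424 and 568 CPM in the crypt-base cells of Ctrl 1 to 4 and at 8.21, 5.32, 4.82 and 3.49 CPM in GF. It fell by 6.51 ± 0.33 there (edgeR adjusted p = 5.1e-12). The fall was 6.75 ± 0.61 in absorptive cells, where Ctrl 1 stood at 57.0 CPM and Ctrl 2 to 4 at 359 to 531 CPM. Cd74 fell by 7.16 ± 0.41 in S-phase, by 6.58 ± 0.40 in dividing and by 5.79 ± 0.60 in goblet cells. With a stricter goblet gate the goblet value was -2.86 and not called (adjusted p = 0.099). The change in absorptive cells did not differ detectably from that in crypt-base cells (difference 0.05 ± 1.06, adjusted p = 0.99) or goblet cells (-0.70 ± 0.93, adjusted p = 0.73).

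The other class II genes showed the same separation. H2-Ab1, the beta chain, had 1 count in GF crypt-base cells, 706-fold lower (95% counting interval 126 to 27996), and 3 counts in GF absorptive cells, 256-fold lower (87.0 to 1245). It fell by 6.07 ± 0.54 in dividing and by 5.43 ± 0.70 in goblet cells, and in S-phase cells 2 counts remained in GF, 142-fold lower (39.0 to 1178). Ciita itself fell by 5.59 ± 0.46 in crypt-base cells (edgeR adjusted p = 3.1e-08), from 41.8 ± 12.5 to 0.721 ± 0.558 CPM. Immune cells also carry class II. Over all cells, Cd74 and H2-Ab1 stayed called lower under every alternative, 1 of which left out the cells past the immune gate. The part of immune cells in the values of each class was not tested. The summed immune markers were 0 to 4.8 CPM in absorptive cells of either group, and 1.4 to 6.9 CPM in Ctrl against 0.7 to 19.8 CPM in GF crypt-base cells.

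Genes of MHC class I presentation were also lower, by less. Over all cells 9 of 12 were called lower and 0 higher, and 7 of 12 in absorptive, 8 of 11 in crypt-base, 6 of 11 in S-phase, 8 of 12 in dividing and 6 of 11 in goblet cells. The crypt-base count was 5 and the goblet count 2 under a stricter gate. B2m, the light chain, stood at 1469, 781, 1098 and 1245 CPM in absorptive cells of Ctrl 1 to 4 and at 167, 313, 284 and 347 CPM in GF. It fell by 2.03 ± 0.27 on the log2 scale (edgeR adjusted p = 7.2e-06), and by 1.34 ± 0.22 in crypt-base, 1.39 ± 0.20 in S-phase and 1.29 ± 0.19 in dividing cells. The heavy chains H2-K1 and H2-D1 fell by 1.42 ± 0.16 and 1.34 ± 0.18 in crypt-base cells. Nlrc5, the class I counterpart of Ciita, fell by 5.91 ± 0.64 in absorptive and 4.63 ± 0.55 in crypt-base cells. The immunoproteasome subunit Psmb8 fell by 4.36 ± 0.50 and 3.36 ± 0.35 in the same order, and the peptide transporter Tap1 by 3.55 ± 0.43 in absorptive cells. The tuft class (14 Ctrl and 15 GF cells) was too small for a test, and B2m stood there at 166 to 638 CPM in Ctrl and at 88.9 to 116 CPM in GF.

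**Figure D3:**
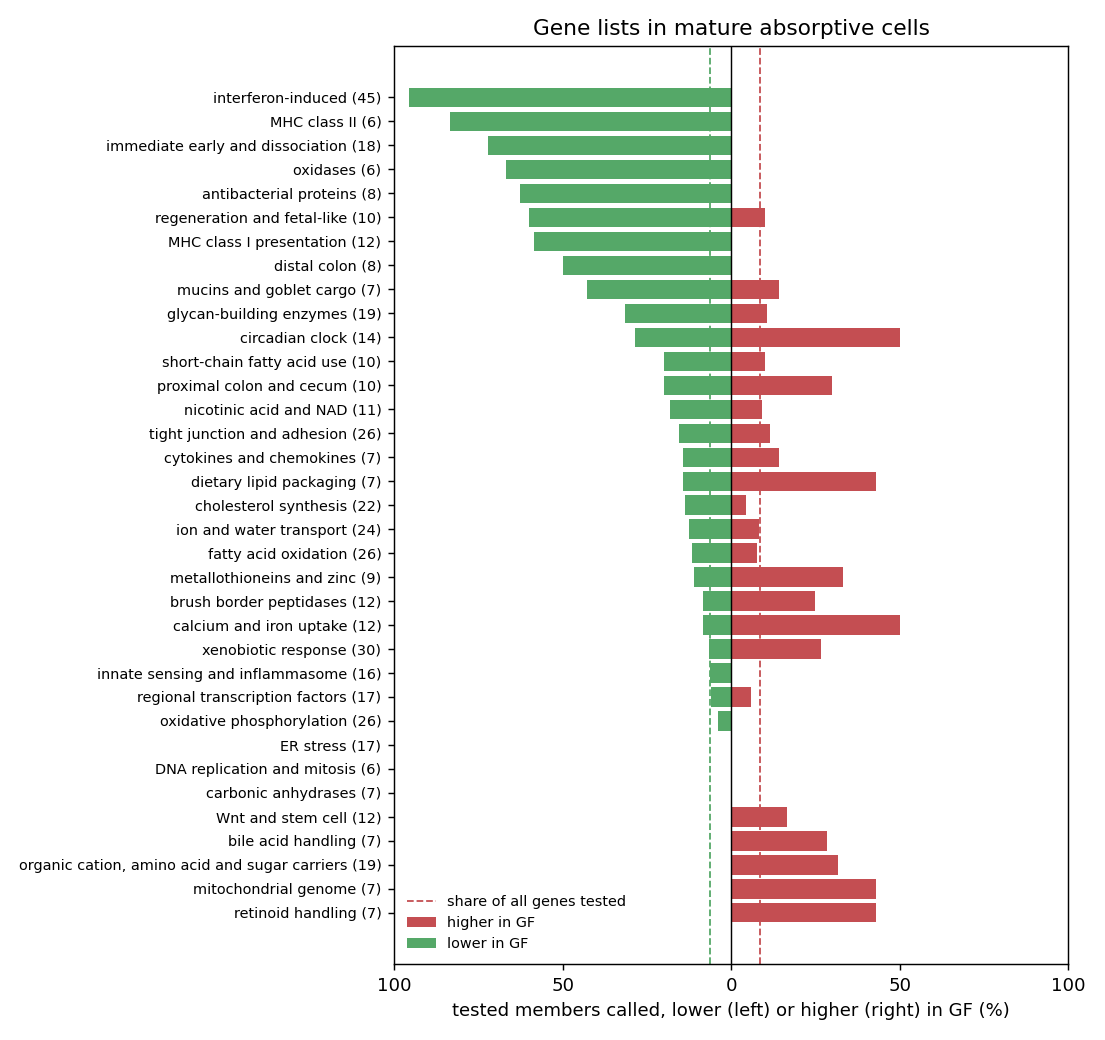
Share (horizontal axis, percent) of the tested members of each gene list with at least 5 tested that were called lower (left, green) or higher (right, red) in GF absorptive cells, with the number tested in brackets and dashed lines at the shares of all genes (6.23% lower, 8.5% higher). Interferon-induced and MHC class II genes stand at the lower end, and clock and calcium and iron uptake genes were called higher in 7 of 14 and 6 of 12.

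Of 13 tested antibacterial protein genes, 4 were lower and 1 higher over all cells of GF, and 5 of 8 were lower in absorptive cells. Reg3g, a lectin that kills Gram-positive bacteria, was at 35.0, 57.4, 32.8 and 116 CPM over all cells of Ctrl 1 to 4 and at 1.19, 1.06, 1.06 and 0.287 CPM in GF, a fall of 6.02 ± 0.56 (edgeR adjusted p = 2.6e-06). In absorptive cells it had 267 counts in Ctrl and 0 in GF, at least 148-fold lower. It fell by 4.64 ± 0.65 in crypt-base and 5.33 ± 0.62 in dividing cells, and had 1 count in GF S-phase cells, 287-fold lower (95% counting interval 51.1 to 11368). Reg3b, its relative, fell by 8.19 ± 1.09 over all cells, from 111 ± 90.0 to 0.354 ± 0.0852 CPM. Other members changed less or the opposite way. Lypd8, which keeps flagellated bacteria off the colonic surface, fell by 0.99 ± 0.21 in absorptive cells from 4775 ± 791 to 2401 ± 379 CPM. The receptor that carries IgA into the lumen, Pigr, fell by 1.31 ± 0.23 from 3178 ± 560 to 1280 ± 316 CPM (0.87 with a wider and 2.13 with a stricter gate). Zg16, a goblet lectin that clumps Gram-positive bacteria, was higher over all cells, by 2.69 ± 0.48, at 21.0 to 37.3 CPM in Ctrl and 112 to 319 CPM in GF. Goblet cells made up 6.59% of Ctrl and 9.45% of GF cells.

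Enzymes that make hydrogen peroxide and nitric oxide at the epithelial surface were lower, 4 of 6 tested in absorptive, crypt-base and S-phase cells each, 4 of 7 in dividing and 1 of 5 in goblet cells, with 0 higher. In the fit on the 8 GF and Ctrl samples alone the count was 2 in S-phase and 1 in dividing cells. Nos2, the inducible nitric oxide synthase, stood at 28.8, 70.1, 82.5 and 77.2 CPM in crypt-base cells of Ctrl 1 to 4, and 1 count was left in the 4 GF samples, 519-fold lower (95% counting interval 92.1 to 20579). It had 0 counts in GF S-phase cells, at least 54.9-fold lower, and 1 in GF dividing cells, 345-fold lower (61.2 to 13688). Duox2, a dual oxidase, was at 52.3, 173, 96.3 and 173 CPM in Ctrl absorptive cells and at 1.67, 0.992, 0.356 and 1.26 CPM in GF. It fell by 7.03 ± 0.60 there (edgeR adjusted p = 1.2e-08), by 3.55 ± 0.46 in crypt-base, 4.13 ± 0.37 in S-phase, 4.17 ± 0.52 in dividing and 4.18 ± 0.61 in goblet cells. The absorptive fall was larger than that in crypt-base cells by 3.33 ± 0.72 (adjusted p = 0.011). The maturation factor Duoxa2 had 0 counts in GF absorptive cells, at least 78.6-fold lower, and the membrane subunit Cyba fell by 2.31 ± 0.37. Nox1, the oxidase of crypt cells, fell by 0.97 ± 0.19 in crypt-base cells.

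Of 16 tested cytokines and chemokines 6 were called lower over all cells (3 without GF 2), 1 higher (0 under TMM) and 9 did not pass. In crypt-base cells the cytokine Tnf stood at 64.0, 80.1, 64.8 and 37.2 CPM in Ctrl 1 to 4 and at 10.9, 14, 12.2 and 1.16 CPM in GF, a fall of 2.55 ± 0.42 (edgeR adjusted p = 0.0007). Il33, an alarmin, was uneven among Ctrl samples (57.6, 2.22, 27.5 and 9.65 CPM) and at 1.82 CPM in GF 1 with 0 in GF 2 to 4, a fall of 5.25 ± 0.98 that became 7.88 without GF 1. Tifa, which senses the bacterial sugar ADP-heptose, and Casp4, which senses lipopolysaccharide in the cytosol, fell by 0.99 ± 0.15 and 1.07 ± 0.18 in crypt-base cells. Over all cells the macrophage growth factor Csf1 fell by 3.73 ± 0.55, the STAT3 target Socs3 by 2.49 ± 0.30 and Stat3 itself by 0.86 ± 0.14, from 143 ± 3.86 to 78.9 ± 10.4 CPM. The NF-kappaB feedback inhibitors Nfkbia and Tnfaip3 fell by 1.70 ± 0.27 and 1.99 ± 0.31. Il15, which sustains intraepithelial lymphocytes, went the other way in absorptive cells, by 0.95 ± 0.23 from 136 ± 39.8 to 275 ± 42.4 CPM. Il18, an inflammasome cytokine, fell by 1.54 ± 0.31 in absorptive cells, but was not called under a stricter gate (adjusted p = 0.13).

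Immediate early genes, which both stimulation and tissue dissociation raise, were lower in 13 of 18 tested absorptive members and higher in 0, with a median log2 change of -1.40. The count was 8 with a wider absorptive gate, a choice added after the data were seen. Jun stood at 268 to 480 CPM in Ctrl and 103 to 124 CPM in GF absorptive cells, a fall of 1.62 ± 0.28 (edgeR adjusted p = 0.00021). The growth factor Areg fell by 2.42 ± 0.41 and the urokinase receptor Plaur by 3.53 ± 0.53, the latter from 94.8 CPM in Ctrl 2 and 25.8 to 33.3 CPM in the other Ctrl samples. Nfkbia fell by 1.98 ± 0.33 in the same cells. Whether handling of the tissue differed between the groups was not tested.

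Among single genes of the absorptive class, Plet1, a surface protein of migrating epithelium, was at 537, 696, 232 and 599 CPM in Ctrl 1 to 4 and at 0, 0.992, 0.356 and 0 CPM in GF. With 2 counts left in GF it was 1505-fold lower (95% counting interval 416 to 12433). It fell by 4.48 ± 0.73 in crypt-base cells. Muc4, a membrane mucin, stood at 257, 693, 377 and 422 CPM in Ctrl absorptive cells and at 8.36, 10.9, 24.9 and 13 CPM in GF, a fall of 4.78 ± 0.33 (edgeR adjusted p = 4.1e-10). Muc13 fell by 1.27 ± 0.20. Of 19 glycan-building enzymes 6 were lower, 2 higher and 11 did not pass. Among all genes tested in the class, 6.23% were lower and 8.5% higher, and the 2 higher enzymes lie near that share. B3galt5, a galactosyltransferase, fell by 7.90 ± 0.47 from 374 ± 171 to 1.08 ± 1.04 CPM. Fut2, which adds the terminal fucose that gut bacteria eat, fell by 3.02 ± 0.23 in absorptive cells, 2.26 ± 0.47 in crypt-base, 2.87 ± 0.41 in S-phase, 2.55 ± 0.35 in dividing and 2.52 ± 0.33 in goblet cells. The sialyltransferase St6galnac6 fell by 2.06 ± 0.24, whereas Ugt8a, which makes galactosylceramide, rose by 4.12 ± 0.37 from 8.17 ± 6.87 to 163 ± 30.2 CPM.

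In the same class the surface protein Ly6a fell by 6.04 ± 0.48 from 119 ± 48.0 to 1.5 ± 1.23 CPM, and Cd38, an enzyme that consumes NAD, by 2.11 ± 0.23 from 604 ± 209 to 141 ± 29.3 CPM. The water channel Aqp4 was at 333 CPM in Ctrl 2, at 47.5 to 62.6 CPM in the other Ctrl samples and at 0.992 to 6.69 CPM in GF, and fell by 5.16 ± 0.62 (edgeR adjusted p = 1.7e-06). Aqp8 fell by 2.40 ± 0.40. The calcium-binding protein S100g fell by 2.80 ± 0.41 but was not called under a stricter gate (adjusted p = 0.086). Gsdmc2 and Gsdmc4, gasdermins of surface colonocytes with near-identical relatives, fell by 2.02 ± 0.31 and 1.90 ± 0.27. Under a wider gate these became -1.14 and -1.16, both still called. In the absorptive class the summed crypt-base markers were 143 to 164 CPM in Ctrl and 169, 177, 404 and 224 CPM in GF 1 to 4, and the median absorptive marker score, for which the gate's cut is 40, was 125 in Ctrl and 110 in GF. The part of this in the gene changes of the class was not tested. Among all genes tested in the class, 6.23% were lower and 8.5% higher. Of 10 regeneration and fetal-like genes, which include Ly6a, 6 were lower and 1 higher, and the 1 higher lies near the share of all genes. The 4 of 8 distal colon genes called lower were Prdx6 and 3 gasdermins, Gsdmc2 and Gsdmc4 among them. Cd177, a surface glycoprotein better known from neutrophils, fell in each of the other classes, by 4.69 ± 0.36 in crypt-base, 4.52 ± 0.45 in S-phase, 3.55 ± 0.50 in dividing and 4.89 ± 0.48 in goblet cells.

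Metallothioneins, small cysteine-rich proteins that bind zinc and copper and are induced by zinc through MTF1, were higher in GF in every class tested. Mt2 stood at 28.0, 4.35, 21.2 and 17.1 CPM over all cells of Ctrl 1 to 4 and at 118, 281, 181 and 218 CPM in GF, a rise of 3.53 ± 0.43 (edgeR adjusted p = 5.9e-05). Mt1 was at 16.1 to 54.4 CPM in Ctrl and 91.9 to 273 CPM in GF, a rise of 2.58 ± 0.40. The groups did not overlap for either. In absorptive cells Mt1 and Mt2 rose by 3.85 ± 0.48 and 4.42 ± 0.64, in crypt-base cells by 2.21 ± 0.35 and 3.0 ± 0.38, in S-phase cells by 2.02 ± 0.34 and 3.50 ± 0.37, and in dividing cells by 2.84 ± 0.43 and 3.90 ± 0.41. In goblet cells they rose by 3.25 ± 0.68 and 4.24 ± 0.88, but these calls were less steady. Both were lost without Ctrl 2 (edgeR adjusted p = 0.054 and 0.056) and with limma-voom (0.058 and 0.078). Both were also lost under a stricter gate, where Mt1 was at 1.95 (edgeR adjusted p = 0.089). The Mt2 call was lost without Ctrl 4 as well, and the Mt1 call with at least 20 cells per sample. Slc39a4, the zinc importer that falls when zinc is plentiful, fell by 1.26 ± 0.27 in absorptive cells. Slc39a14, of the same carrier family, was called higher in those cells.

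The metal response element is read as TGCACNC or TGCGCNC on either strand. In the same windows of 250 bases it was held by 23.8% of genes with a sequence, and by 8 of the 10 matched members of the metallothionein and zinc list. The promoters of the 2 metallothioneins are shown with matches in capitals.
Mt1 promoter: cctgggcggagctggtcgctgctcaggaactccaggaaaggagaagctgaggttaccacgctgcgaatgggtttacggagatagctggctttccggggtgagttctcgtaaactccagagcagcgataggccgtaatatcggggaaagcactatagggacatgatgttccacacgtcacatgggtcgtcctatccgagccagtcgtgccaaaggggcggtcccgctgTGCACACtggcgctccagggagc
Mt2 promoter: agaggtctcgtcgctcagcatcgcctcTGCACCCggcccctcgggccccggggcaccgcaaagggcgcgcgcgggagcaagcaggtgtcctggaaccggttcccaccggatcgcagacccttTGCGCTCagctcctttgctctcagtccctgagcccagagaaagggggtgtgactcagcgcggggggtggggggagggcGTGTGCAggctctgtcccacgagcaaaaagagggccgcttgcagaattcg
They lie at chr8:94178839-94179088 for Mt1 and chr8:94172368-94172617 for Mt2, both on the plus strand of GRCm38.p6. Within these windows Mt1 held 1 match and Mt2 3. Bases past the annotated start were not searched, so elements there are not counted.

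Several genes of nutrient uptake that are best known from the small intestine were higher in GF absorptive cells. Among them were 2 of 7 bile acid genes and 3 of 7 lipid genes (1 of the latter under a stricter gate), against 8.5% of all genes tested. Slc10a2, the ileal bile acid importer, stood at 99.8, 114, 88.5 and 147 CPM in Ctrl 1 to 4 and at 801, 648, 437 and 379 CPM in GF, a rise of 2.31 ± 0.24 (edgeR adjusted p = 1.8e-07). Slc51a, a subunit of the basolateral bile acid exporter, rose by 1.57 ± 0.28. Apob, the scaffold of chylomicrons, was at 314, 105, 202 and 225 CPM in Ctrl and at 1569, 995, 1146 and 1414 CPM in GF, a rise of 2.61 ± 0.26 (adjusted p = 1.1e-07), and rose by 1.23 ± 0.20 in crypt-base cells. Not every lipid gene went this way: Dgat2, which completes triglycerides, fell by 1.44 ± 0.28. Of 7 tested retinoid genes 3 were higher and 0 lower. Rbp2, the intestinal retinol-binding protein, rose by 2.29 ± 0.41 from 8.44 ± 5.99 to 50.2 ± 19.2 CPM, and Aldh1a1, which makes retinoic acid, by 2.13 ± 0.20 from 226 ± 44.7 to 981 ± 172 CPM. Lrat, which esterifies retinol, rose by 4.21 ± 0.64 (2.46 with a wider and 7.08 with a stricter gate).

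Of 12 brush border peptidases 3 were higher, 1 was lower and 8 did not pass the test (2 higher under TMM). Among all genes tested in absorptive cells, 8.5% were higher and 6.23% lower, and the 1 lower peptidase lies near that share. The peptidase Mep1a stood at 328, 258, 322 and 331 CPM in Ctrl absorptive cells and at 965, 768, 830 and 1237 CPM in GF, a rise of 1.61 ± 0.19 (edgeR adjusted p = 1.8e-06). It rose by 1.82 ± 0.28 in crypt-base cells. Enpep, a peptidase that trims angiotensin, rose by 3.66 ± 0.54 from 16.1 ± 11.9 to 192 ± 40.5 CPM. Aoc1, the histamine-degrading diamine oxidase, rose by 2.07 ± 0.25 from 55.6 ± 14.6 to 228 ± 47.4 CPM. Cobl, an actin nucleator of microvilli, rose by 2.80 ± 0.25 from 79.6 ± 31.0 to 611 ± 106 CPM. Among carriers 6 of 19 were higher, 0 lower and 13 did not pass, with 3 higher without Ctrl 4. Slc22a4, the ergothioneine transporter, rose by 4.18 ± 0.49 from 5.37 ± 5.62 to 87.6 ± 20.4 CPM. Slc3a1, a subunit of the cystine carrier, rose by 1.98 ± 0.37 and the sulfate carrier Slc13a1 by 4.74 ± 1.14. Prss23, a secreted protease, had 2 counts in Ctrl and was 83.4-fold higher in GF (95% counting interval 22.9 to 692). Susd4, a complement regulator, rose by 4.79 ± 0.43.

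Iron, drug-metabolism and fatty acid genes were mixed. Among all genes tested in absorptive cells, 8.5% were higher and 6.23% lower. Of 12 calcium and iron genes 6 were higher and 1 lower (4 higher under TMM). The iron exporter Slc40a1 rose by 1.46 ± 0.32 and the transferrin receptor Tfrc by 1.34 ± 0.27, with overlapping groups for Tfrc. Tfrc also rose by 1.14 ± 0.22 in dividing cells, from 518 ± 140 to 1139 ± 220 CPM. Slc11a2, the iron importer, rose by 1.74 ± 0.36 but was not called under a stricter gate (0.94, edgeR adjusted p = 0.23). Of 30 xenobiotic genes 8 were higher and 2 lower (5 and 4 under TMM, and 4 higher without the samples over 0.5% mitochondrial). The 2 lower lie near the share of all genes. The cytochromes Cyp2d26, Cyp4f14 and Cyp3a13 rose by 2.13 ± 0.22, 1.78 ± 0.20 and 0.91 ± 0.20, and the carboxylesterase Ces2a fell by 1.92 ± 0.28. Cytochromes did not all rise: Cyp2c55, the called member of this list with the highest mean CPM, was called lower. Slc5a8, which imports butyrate, lactate and nicotinate with sodium, stood at 204, 219, 262 and 289 CPM in Ctrl 1 to 4 and at 109, 98.2, 87.9 and 144 CPM in GF, a fall of 1.17 ± 0.24. Oxct1, which burns ketone bodies, rose by 1.62 ± 0.28. Of 26 oxidative phosphorylation genes 1 was lower. Transcripts of the mitochondrial genome were higher for 3 of 7, and for 0 without GF 4, the sample with 0.663% mitochondrial transcripts.

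**Figure D4:**
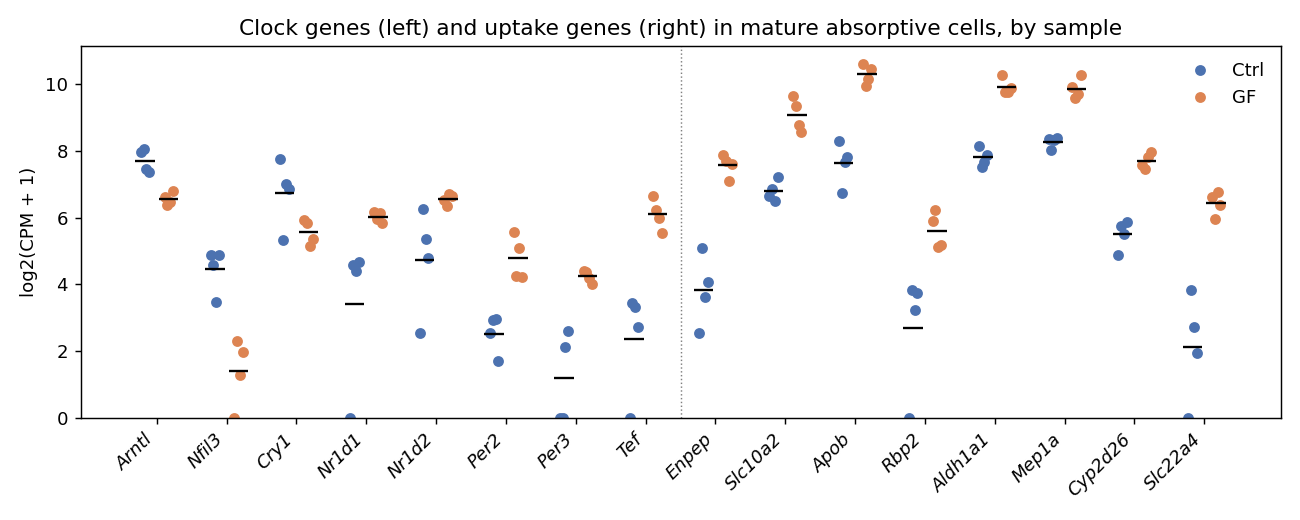
Levels of 8 clock genes and 8 uptake genes as log2(CPM + 1) in mature absorptive cells, with 1 point per sample (Ctrl blue, GF orange) and a bar at the mean of the logged values. Arntl, Nfil3 and Cry1 have lower means in GF and the other 13 genes higher means.

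Clock genes of the absorptive class changed in both directions. The core loop pairs the activator Arntl (BMAL1) with CLOCK, the Per and Cry repressors act back on it, and Nr1d1 and Nr1d2 repress Arntl and Nfil3. Of 14 tested members 7 were higher and 4 lower. Arntl stood at 247, 265, 174 and 164 CPM in Ctrl 1 to 4 and at 97.0, 81.4, 87.6 and 111 CPM in GF, a fall of 1.13 ± 0.21 (edgeR adjusted p = 0.00055). Nfil3 fell by 3.20 ± 0.55 (1.84 with a wider gate) and Cry1 by 1.39 ± 0.33, the latter with overlapping groups. In the opposite direction, Nr1d1 stood at 0, 22.9, 20.2 and 24.6 CPM in Ctrl and at 70.2, 61.5, 69.8 and 56.4 CPM in GF, a rise of 1.67 ± 0.32. Nr1d2 rose by 1.36 ± 0.30 and Per3 by 2.31 ± 0.54. Tef, an output factor that binds D-boxes and competes with Nfil3, stood at 0, 9.80, 8.96 and 5.59 CPM in Ctrl and at 98.7, 73.4, 62.7 and 45.8 CPM in GF, a rise of 3.27 ± 0.39 (adjusted p = 1.8e-06). Per2 rose by 2.53 ± 0.48, but was not called with a wider gate (1.57, adjusted p = 0.055).

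The clock genes did not follow this pattern in crypt-base cells, where 1 of 14 was higher and 0 lower. The 1 gene was Rora, which rose by 1.52 ± 0.29. The difference between the classes was tested directly, in a fit that kept each sample as a block. Over all genes, the change in absorptive cells lay above that in crypt-base cells for 252 (2.59% of 9746) and below it for 187 (1.92%). TMM gave 197 and 259, so the higher share moved from 57.4% to 43.2%, and the total of 439 fell to 257 without Ctrl 3, 260 without Ctrl 4 and 263 without GF 3. Of 15 clock genes 5 had a change above that in crypt-base cells and 2 had a change below it (3 and 2 without Ctrl 3). The difference was 3.21 ± 0.50 for Tef (edgeR adjusted p = 0.0013), 2.58 ± 0.47 for Per2 and -1.22 ± 0.24 for Arntl. Whether the samples were collected at the same time of day was not tested.

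Several other groups separated the classes by the same test. Of 37 interferon-induced genes 12 had a change in absorptive cells below that in crypt-base cells, Rsad2 by 5.45 ± 0.91 (edgeR adjusted p = 0.0022) and Slfn4 by 5.09 ± 0.97. Ifit1 differed by 5.04 ± 1.21 in the same direction, but lost its call without GF 3 (adjusted p = 0.22) or GF 4 (0.11). Ifit1 had too few counts in crypt-base cells of either group to be tested there alone. For a gene with few counts in Ctrl crypt-base cells a fall there cannot be seen. The test does not separate such a low starting level from a different response. Muc4 differed by -4.65 ± 0.33 (5.1e-08), with crypt-base levels of 460 ± 63.4 CPM in Ctrl and 403 ± 148 CPM in GF. Aqp4 differed by -3.94 ± 0.64 and Gsdmc4 by -1.82 ± 0.39. Plet1 differed by -5.97 ± 1.22, with the call lost without GF 3 (0.083). On the other side, the difference was positive for Prss23 and Slc13a1, at 5.28 ± 0.87 and 5.2 ± 0.87, and for Aldh1a1, at 2.90 ± 0.21 (5.1e-08). Aldh1a1 was called higher in absorptive and lower in S-phase cells, with no call in crypt-base cells. A positive difference can thus exceed the rise in absorptive cells. Cobl differed by 2.58 ± 0.27, Slc40a1 by 2.60 ± 0.51 and Apob by 1.41 ± 0.21. Enpep differed by 4.79 ± 0.82, which without Ctrl 3 was 3.37 and not called (0.080).

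**Figure D5:**
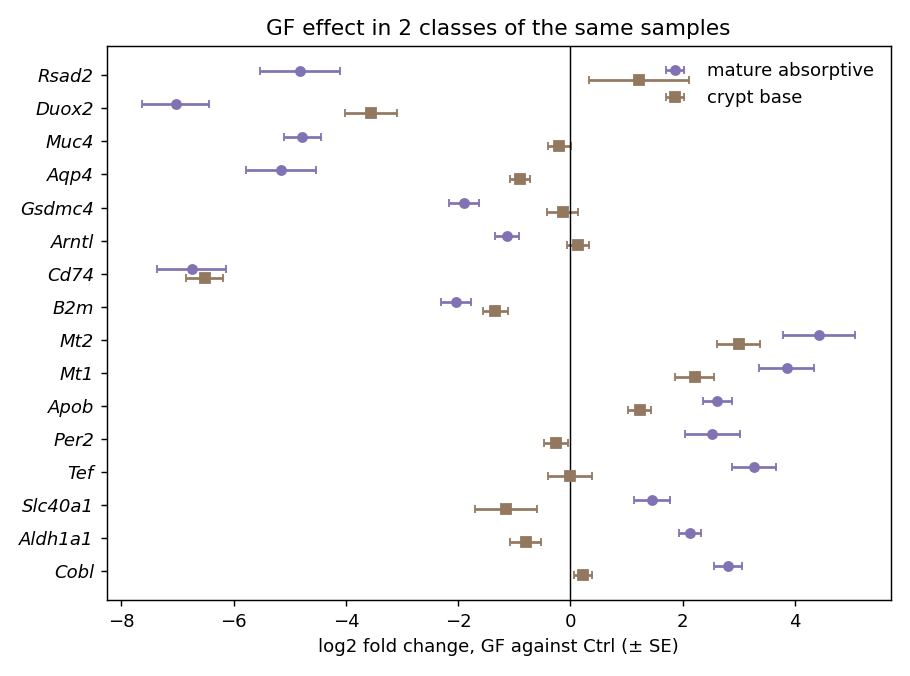
Log2 fold change of GF against Ctrl with its SE (horizontal axis) for 16 genes (vertical axis), in mature absorptive cells (circles) and crypt-base cells (squares) of the same samples. Cd74 lies at -6.75 and -6.51, whereas Muc4 lies at -4.78 and -0.20 and Tef at 3.27 and 0.00.

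Beside the class II genes, crypt-base cells showed changes in surface, signalling and matrix genes. Lgr5, the receptor that defines the crypt base and one of the gate's own markers, was at 701 ± 85.8 CPM in Ctrl and 704 ± 138 CPM in GF, given here as a description. Prom1, a surface protein of the crypt, stood at 492 to 537 CPM in Ctrl and 238 to 322 CPM in GF and fell by 0.79 ± 0.16 (edgeR adjusted p = 0.0037). The peroxidasin Pxdn fell by 5.56 ± 0.55, the amino acid importer Slc6a14 by 1.98 ± 0.36, Nfkbia by 1.55 ± 0.26 and Tnfaip3 by 1.67 ± 0.23. Gpc6, a heparan sulfate proteoglycan of the cell surface, stood at 12.8, 6.67, 6.87 and 2.76 CPM in Ctrl 1 to 4 and at 81.2, 51.9, 71.9 and 88.4 CPM in GF, a rise of 3.35 ± 0.47 (adjusted p = 0.00011). The adhesion receptor Adgrb3 rose by 2.56 ± 0.41 from 20.7 ± 15.6 to 130 ± 34.2 CPM and the GTPase-activating protein Arhgap20 by 2.60 ± 0.37. In S-phase cells the actin-severing protein Scin rose by 3.23 ± 0.40 from 5.77 ± 3.58 to 56.3 ± 17.9 CPM, and the dynein Dnah11 by 3.53 ± 0.59 (5.69 with a stricter gate). In dividing cells the phospholipase Pla2g5 had 3 counts left in GF, 71.6-fold lower (95% counting interval 24.0 to 352), and Tnf fell by 2.68 ± 0.48. DNA replication and mitosis genes that were not gate markers had 0 called by edgeR of 19 in crypt-base, 14 in S-phase and 22 in dividing cells. At an unadjusted p under 0.05 there were 6, 4 and 5, and the alternatives, DESeq2, limma-voom and the replicate block included, called at most 1, 0 and 2.

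In goblet cells 3 of 7 tested mucin and cargo genes that were not gate markers were lower (1 without GF 2) and 4 did not pass. Retnlb, an antibacterial goblet product, stood at 492, 1037, 443 and 698 CPM in Ctrl 1 to 4 and at 161, 66.7, 115 and 44.0 CPM in GF, a fall of 2.82 ± 0.49 (edgeR adjusted p = 0.0039). Plet1 had 1 count left in GF, 392-fold lower (95% counting interval 69.3 to 15595), and Ceacam10 fell by 4.96 ± 0.73. The chloride channel Ano1 fell by 2.72 ± 0.54, with GF 1 above Ctrl 1. Tnfaip3 fell by 3.66 ± 0.58 and Socs3 by 3.44 ± 0.56. Hspa5, the chaperone BiP of the secretory pathway, stood at 1326, 646, 803 and 929 CPM in Ctrl and at 369, 370, 337 and 310 CPM in GF, a fall of 1.41 ± 0.25 (adjusted p = 0.0046). Of 18 ER stress genes 7 were lower in goblet cells and 11 did not pass, and without Ctrl 1 the count was 1 lower. The chemokine Ccl6 fell by 3.35 ± 0.75, and its call was lost when any of Ctrl 2, Ctrl 3, GF 2, GF 3 or GF 4 was left out (adjusted p between 0.055 and 0.062). Syt14, a synaptotagmin, had 0 counts in Ctrl and 111 in GF, at least 14.1-fold higher.

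Some genes called higher in goblet cells are absorptive cell genes, and absorptive transcripts in goblet cells were themselves higher in GF samples 2 to 4. Summed absorptive markers in goblet cells were 548 to 615 CPM in Ctrl, and 635, 1748, 1970 and 5075 CPM in GF 1 to 4. Of the goblet cells, 0 in Ctrl and 8 in GF also passed the absorptive gate. Car1 stood at 57.6 to 111 CPM in Ctrl and at 61.6, 2365, 2375 and 6309 CPM in GF, a rise of 5.11 ± 1.14. Without the 4 Ctrl and 13 GF goblet cells with a raised absorptive score (at least 0.5 of the cut), Car1 was at 2.67 (edgeR adjusted p = 0.075), Cyp2c55 went from 5.01 to 2.23 (0.083) and Gsdmc4 from 3.21 to 2.05 (0.14). Slc26a3, itself an absorptive marker, went from 5.49 to 2.76 (0.014), and Mep1a from 5.37 to 3.53 (0.0062), called in both. Mep1a and Slc26a3 lost their calls with limma-voom (0.11 and 0.24). Slc26a3 also lost its call without Ctrl 3, without Ctrl 4 and under a stricter gate. The goblet counts became 39 higher and 89 lower without these cells. Doublets of a goblet and an absorptive cell, and cells between both fates, cannot be told apart here.

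Against goblet cells, the change in absorptive cells lay above that in goblet cells for 105 genes (1.1% of 9552) and below it for 127 (1.33%). TMM gave 70 and 153 (45.3% and 31.4% higher), and without the goblet cells of raised absorptive score there were 106 and 106. Zbp1 was more strongly lowered in absorptive cells by 4.06 ± 0.65 (edgeR adjusted p = 0.0080), and Muc4 by 3.52 ± 0.44, while Cobl was more strongly raised by 2.23 ± 0.36. Gsdmc4, Cyp2c55 and the phospholipase Pla2g3 differed by -4.88 ± 0.66, -5.12 ± 0.85 and -4.88 ± 0.74. Gsdmc4 and Cyp2c55 were called lower in absorptive and higher in goblet cells, so their differences hold changes of both classes. Without those goblet cells Cyp2c55 was at -2.68 (0.027) and Pla2g3 at -3.44 (0.049), both still called, whereas Mal, a raft protein, went from -5.25 ± 0.96 to -1.13 and lost its call (0.64). Mal also lost it without Ctrl 4 or GF 2. The total of this comparison, 232, was carried by single samples: it was 42 without GF 2, 53 without Ctrl 4, 79 without Ctrl 3, 87 without Ctrl 2, 97 without GF 3, 118 without GF 4, 141 without Ctrl 1 and 702 without GF 1.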

How the data were processed

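The values are whole-number counts of transcripts per gene and cell in the tables that the authors deposited. Per the submitters' processing notes the reads were set against mm39 and Seurat was used, while aligner and counting settings were not given in the sources used here. Sample names come from the deposited cell table. Cells with at least 500 transcripts were kept, doublets were neither called nor removed, and classes were gated by marker sums with at least 3 markers detected. Counts were summed per sample and class with at least 10 cells. They were tested with edgeR 4.0.16 in R 4.3.3 (quasi-likelihood, library-size scaling, filterByExpr, Benjamini-Hochberg adjustment, threshold 0.05) in a fit over all 16 cecal samples, which share 1 estimate of the spread. Class differences used an interaction term with the sample as a block. Values are CPM per sample, scaled to its library, as mean ± SD, and log2 changes are GF against Ctrl with their SE. For 1 to 3 counts in a group a ratio with a 95% exact counting interval is given, and for 0 counts a bound at 3 counts over the group. Both cover counting error only. Shares of cells were compared with exact permutation tests (scipy 1.17.1). The scripts were tested on simulated counts. Alternatives were TMM, DESeq2 1.42.0, limma-voom (limma 3.58.1), no low-count filter, other gates and cell filters, a fit on the 8 GF and Ctrl samples, a replicate block, and leaving out each sample. Named genes were, for each list, up to 4 called members by mean CPM and those its description needs, and the 10 largest rises and falls with at least 20 CPM and no overlap, without predicted genes (5 each way for class differences). Of the genes this picks, those described are a part. Some items are not reported here. The members and lists were chosen with earlier results of these data known.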

Additional observations from a re-analysis of the deposited data

Results flagged for a closer look

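Of 398 sets of 4 samples, gene sets with no value of at least 20 CPM were passed over. Among the rest, 18 had 1 sample far from the other 3. The sets passed over were not counted, so the 18 cannot be set against the 1 in 20 that chance gives. In absorptive cells Rsad2 was at 271 CPM in Ctrl 1 (19.6 to 54.3 in the other Ctrl samples). Ctrl 2 stood apart for Aqp4 at 333 CPM (47.5 to 62.6), Slc39a4 at 170 (93.0 to 105), Cyp4f14 at 111 (74.5 to 78.9), Plaur at 94.8 (25.8 to 33.3) and, at the low end, Mep1a at 258 (322 to 331). GF 4 stood apart for Slc39a4 at 64.8 CPM (39.2 to 41.8) and Cd38 at 184 (121 to 131), and GF 1 for Aldh1a1 at 1240 (875 to 935). Ctrl 1 and Ctrl 2 gave the fewest absorptive cells, 10 and 22.

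In crypt-base cells the sample apart was GF 4 for Mep1a at 153 CPM (90.3 to 98.9), GF 2 for Prom1 at 238 (315 to 322) and GF 3 for Tifa at 54.9 (75.6 to 78.9). In S-phase cells it was Ctrl 1 for B2m at 510 CPM (320 to 348), and Ctrl 2 for Mt2 at 5.42 (27.6 to 31.3) and Cd177 at 309 (87.1 to 121). B2m in dividing cells was at 514 CPM in Ctrl 1 (364 to 388). Over all cells Cd74 was at 333 CPM in Ctrl 2 (395 to 407) and Enpep at 77.2 in GF 4 (31.8 to 34.5).

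The change in GF differed between absorptive and crypt-base cells by the edgeR interaction test for 18 named genes. The difference was positive for Prss23 (5.28), Slc13a1 (5.2), Enpep (4.79), Tef (3.21), Aldh1a1 (2.90), Slc40a1 (2.60), Cobl (2.58), Per2 (2.58) and Apob (1.41). It was negative for Plet1 (-5.97), Rsad2 (-5.45), Slfn4 (-5.09), Ifit1 (-5.04), Muc4 (-4.65), Aqp4 (-3.94), Duox2 (-3.33), Gsdmc4 (-1.82) and Arntl (-1.22). Adjusted p lay between 5.1e-08 and 0.019. Where Ctrl crypt-base cells held few counts, as for Ifit1, a fall there could not be seen. Between absorptive and goblet cells 7 named genes differed, Cobl by 2.23 and, in the other direction, Mal by -5.25, Cyp2c55 by -5.12, Gsdmc4 by -4.88, Pla2g3 by -4.88, Zbp1 by -4.06 and Muc4 by -3.52 (adjusted p 0.0028 to 0.015).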

How the results depend on the processing

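The genes named in this text, picked in part for large changes, gave 211 called results. Of these, 178 were tested and called under every alternative. Another 15 were called wherever they were tested but could not be tested in 1 to 3 alternatives. The other 18 lost the call in at least 1, 9 of these in goblet cells. None of these named results changed sign where tested, and genes that were not named were not followed 1 by 1. Totals of called genes moved by over 1.5 times as follows. DESeq2 gave 1162 over all cells and 478 in goblet cells. Without a filter on low counts the totals were 763 in crypt-base, 442 in S-phase, 499 in dividing and 931 in goblet cells, and 747 for absorptive against goblet cells. A stricter gate gave 71 in S-phase, 77 in dividing and 147 in goblet cells. Goblet cells gave 108 with at least 20 cells per sample, 163 without the cells past the absorptive gate and 128 without those at 0.5 of its cut or more. Leaving out each sample in turn gave 417 to 736 over all cells, 821 to 1313 in absorptive, 231 to 459 in crypt-base, 143 to 200 in S-phase, 172 to 222 in dividing and 108 to 653 in goblet cells, 257 to 434 for absorptive against crypt-base and 42 to 702 for absorptive against goblet cells. The cause was not tested. Deviations of same-numbered GF and Ctrl samples over all cells correlated at r = 0.09, -0.11, -0.06 and 0.35. Those of unequal number lay between -0.312 and 0.345. These few values cannot tell whether the numbers pair the samples. With the replicate block the totals were 755 over all cells, 1014 in absorptive, 217 in crypt-base, 173 in S-phase, 130 in dividing and 389 in goblet cells. With 10 absorptive cells in Ctrl 1 and 12 goblet cells in Ctrl 1, small changes in low genes were not detectable at this depth.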
